A study of Mus musculus with 2 samples.

Results

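The Fc receptor genes examined here are 8 mouse genes chosen by name: Fcgr1, Fcgr2b, Fcgr3, Fcgr4, Fcer1g, Fcer1a, Fcer2a and Fcgrt, of 21755 annotated protein-coding genes. Open chromatin was measured around them by ATAC-seq, in which the Tn5 transposase cuts accessible DNA and the cut fragments are sequenced. The 2 samples are replicates of 1 group, granulocyte monocyte progenitors (GMP), the marrow cells from which neutrophils and monocytes arise, taken as primary cells from C57BL/6J males that were adult, at 5 to 6 weeks of age, with 50000 cells per library. Both replicates carry the same donor label, no genotype or treatment is given beyond the strain, and the sources used here do not say how the progenitors were isolated. A region was assigned to a gene when its summit lay in the gene body or within 30 kb of it, which gave 69 of the 75148 regions of the series-level list. With 1 group there is no contrast between conditions, so the results below are descriptions of this cell population and of its 2 replicates.

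Fc receptors bind the constant part of antibodies. The activating receptors Fcgr1 (high affinity for IgG), Fcgr3 and Fcgr4 signal through the common γ chain encoded by Fcer1g, which carries the tyrosine motif read by the kinase Syk, and the same chain serves the high-affinity IgE receptor, whose α chain is Fcer1a. Fcgr2b is the inhibitory IgG receptor and recruits the phosphatase encoded by Inpp5d. Fcer2a (CD23) is the low-affinity IgE receptor of B cells, and Fcgrt is the MHC class I-like chain of the neonatal Fc receptor, which pairs with β2-microglobulin and returns IgG from endosomes to the blood. Fcgr2b, Fcgr4, Fcgr3 and Fcer1g lie in this order on chromosome 1, and Fcer1a lies farther along the same chromosome.

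The series-level list held the rows that passed an irreproducible discovery rate (IDR) threshold between the replicates, merged where they overlapped, and each replicate had its own thresholded list (65423 regions in replicate 1 and 53686 in replicate 2). The authors gave every row a fold enrichment, with a median of 8.09 over the series-level list, 9.08 in replicate 1 and 7.74 in replicate 2. This value ranks regions within a list and is not compared between lists as a change. Read depth is unknown, and in a bulk library a site open in few cells cannot be told apart from a site weakly open in many. By the same promoter rule, a summit within 1000 bp of a transcription start site (TSS), 9 of 10 GMP marker genes were open (all but Prtn3, which passed in the list of replicate 1), beside 4 of 7 mast cell and basophil, 4 of 7 B cell, 3 of 7 macrophage, 2 of 7 T and NK cell and 4 of 6 erythroid genes, where 62.7% of all protein-coding genes were open. The part of other cells in the regions below was not tested.

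Promoter sequences of 4 members are shown because they contrast different cases. The start site was open in the series-level list at Fcgr1 and Fcgr3. At Fcgr4 it was open in the list of replicate 2 and in less strict lists, but not in the series-level list. Fcer1a lies in a stretch without regions in the series-level list. Each run ends just before a TSS, reads 5′ to 3′ on the strand of the gene, and comes from GRCm38.p6 (the mm10 build). Capitals mark matches to the consensus letters searched on both strands: PU.1 (GAGGAAGT), C/EBP (TTGCNNAA), RUNX, GATA and the IRF repeat. A match is a match of letters, not a measured binding site.
Fcgr1 promoter (chr3:96293970-96294119, minus strand): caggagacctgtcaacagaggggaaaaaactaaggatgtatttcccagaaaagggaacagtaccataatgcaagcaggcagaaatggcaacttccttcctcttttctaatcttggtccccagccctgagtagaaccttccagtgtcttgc
Fcgr3 promoter (chr1:171059404-171059553, minus strand): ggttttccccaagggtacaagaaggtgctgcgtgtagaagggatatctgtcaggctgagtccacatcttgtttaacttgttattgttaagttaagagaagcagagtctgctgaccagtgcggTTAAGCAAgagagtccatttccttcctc
Fcgr4 promoter (chr1:171018776-171018919, plus strand): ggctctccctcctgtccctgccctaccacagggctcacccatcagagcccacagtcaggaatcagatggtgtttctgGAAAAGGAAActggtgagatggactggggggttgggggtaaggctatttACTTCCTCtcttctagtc
Fcer1a promoter (chr1:173227230-173227379, minus strand): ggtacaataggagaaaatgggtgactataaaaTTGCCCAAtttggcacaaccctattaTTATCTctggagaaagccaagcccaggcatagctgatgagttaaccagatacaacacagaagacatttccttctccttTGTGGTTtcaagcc

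Fcgr1 had the highest promoter fold of the members. Its region (chromosome 3, 96293390 to 96294361, over the first exon, 5′ UTR included) had its summit 2 bp inside the gene, with a fold of 12.4 in the series-level list, 12.5 in replicate 1 and 10.2 in replicate 2, which are the 81.0 and 78.1 percentiles of the replicates' own lists. The stretch printed above holds no match to the 14 motifs reported here. A second strong region lay 6.91 kb upstream, between genes (96300522 to 96301519), with a fold of 12.3, 14.9 in replicate 1 and 9.65 in replicate 2. Both regions thus ranked in the upper part of each list. The remaining 5 of the 7 regions lay downstream: an intronic one of fold 7.45, one of fold 11.7 in an exon of an annotated gene that is not protein-coding, and 3 at promoters of the histone genes Hist2h4, Hist2h3b and Hist2h2bb, with folds of 4.69 to 10.4. One of the 7, the weakest at Hist2h3b, was missing from the list of replicate 2.

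Fcgr3, the low-affinity activating receptor, was open at each of its 3 annotated starts, all at low fold. At the start shared by a pair of its protein-coding transcripts (171059403), the region at 171059142 to 171059609 had its summit 31 bp upstream and a fold of 5.18, with 5.46 in replicate 1 and 4.36 in replicate 2. The C/EBP match printed above lies 28 to 21 bases before this TSS. Its end nearest the TSS is 10 bases from the summit. Of 32585 promoters, 9.62% hold such a match in the 250 bases before their TSS. The region inside the gene at 171057324 to 171057608, near the start of a retained-intron transcript, had a fold of 5.80, with 5.25 and 5.82 in the replicates, and its summit window also holds a C/EBP match. The most upstream start (171064935) had a region of fold 4.39 (171063723 to 171065126), with 4.77 and 3.93 in the replicates. All of these sat at or below the 21.3 percentile of the series-level list. The only region of the window above the list's median fold lay 6.46 kb past the gene's 3′ end, between Fcgr4 and Fcgr3 (171044271 to 171045268), with a fold of 11.9, 12.9 in replicate 1 and 11.0 in replicate 2.

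Upstream of Fcgr3 lay 7 further regions, between 1.83 and 20.7 kb from its most upstream start. Their folds were 2.34 to 4.002, within the lowest 4.20% of the list, while their −log10 q values were 17.1 to 69.5, with a median of 33.8 against 22.2 over the 3081 regions of the list in the same fold range (5 of 7 were above that median). Each of the 7 summit windows of 101 bp had a near-identical copy 7.6 to 15.2 kb away in the same stretch, with 98.0 to 100% identical bases, and so had the window at the most upstream Fcgr3 start. The other 32 windows of the stretch from Fcgr2b to Fcer1g had at most 64.4% identity to their best match in it. Over 2000 bp around the summit at the most upstream start, copies began at 171063299, 171070960 and 171078581, with 88.7% and 88.8% identity of the latter to the first, and each holds an annotated miRNA gene of 62 bp (Mir6546, Gm27552 and Gm27844). Of the 8 regions in copies, 5 were in the lists of both replicates and 3 in neither. The sources used here do not say how reads that map to several places were treated, and its part in these regions was not tested. Without these 8 regions, an alternative chosen after seeing the data, the Fcgr3 window held 7 regions in place of 15. Summit windows of the copies at the Fcgr3 start and next to it are printed to show the likeness.
copy at the Fcgr3 start (chr1:171064249-171064349, minus strand): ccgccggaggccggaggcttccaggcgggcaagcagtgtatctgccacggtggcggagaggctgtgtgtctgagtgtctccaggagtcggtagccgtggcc
next copy upstream (chr1:171071873-171071973, minus strand): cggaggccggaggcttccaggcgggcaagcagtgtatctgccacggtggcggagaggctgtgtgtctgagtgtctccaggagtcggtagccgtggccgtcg

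**Figure D1:**
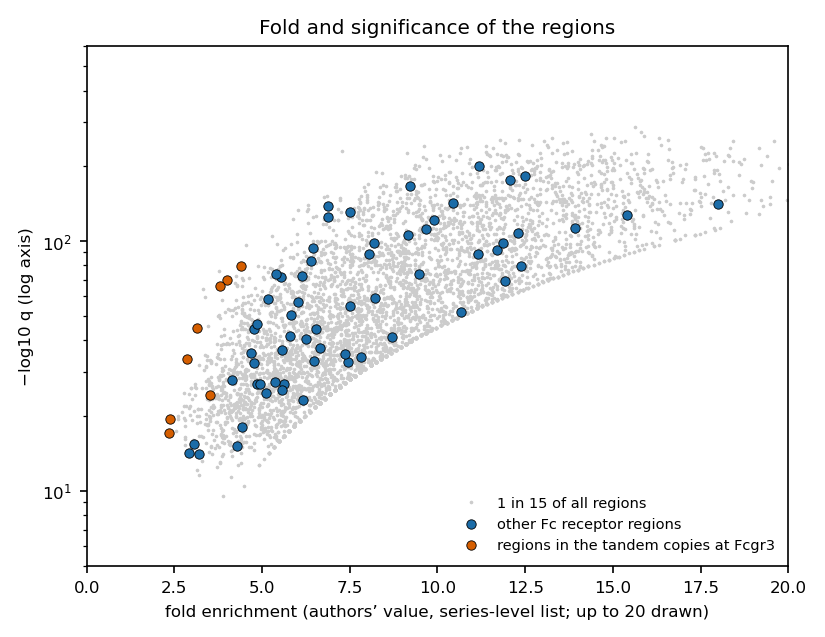
Fold enrichment (x axis, authors' value) against −log10 q (y axis, log scale) in the series-level list; grey points are 1 in 15 of all regions, blue points the other regions of the Fc receptor genes, and orange points the 8 regions in copies at Fcgr3. The orange points lie at the left of the cloud, at folds of 2.34 to 4.39. Of the 7 upstream of the gene, 5 were above the median −log10 q of 22.2 for their fold range, and the lowest was at 17.1.

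Fcgr4, an activating receptor for IgG2 antibodies, had no summit within 1000 bp of its TSS in the series-level list. The nearest region (171016783 to 171018138) had its summit 1273 bp upstream and a fold of 8.06. The summit lay 1274 bp upstream in replicate 1 (fold 9.09) and 946 bp upstream in replicate 2 (fold 6.82), so the promoter counted as open in the list of replicate 2 only. It is 1 broad region made of 4 overlapping rows, and its edge nearest the gene was 782 bp from the TSS. At the TSS itself, the looser lists had a weak region, with its summit 2 bp upstream and a fold of 3.08, and folds of 2.70 in replicate 1 and 3.32 in replicate 2. The PU.1 and IRF matches printed above lie there, at 24 to 17 and 73 to 64 bases before the RefSeq TSS; 2.46% and 2.98% of all promoters hold such matches. No region lay in the gene body, and 11 of the 12 regions of the window were also in the window of Fcgr2b or Fcgr3. The strongest of these, of fold 12.1 (170997753 to 170998672; 12.5 and 11.1 in the replicates) and 11.9 (171006394 to 171006696; 13.9 and 8.76), lay between Fcgr2b and Fcgr4, 20.6 and 12.4 kb upstream of Fcgr4, and their summit windows hold a STAT6-type and an IRF match.

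Fcer1g, the shared signalling chain, was open at its start with a fold of 6.40 (171234182 to 171234823), 6.86 in replicate 1 and 5.66 in replicate 2. Its intron held 2 weaker regions in both replicates, 1.15 and 2.22 kb inside the gene, with folds of 4.76 and 6.13 and with a C/EBP and a RUNX match in their summit windows. A stronger region of the window, of fold 11.2 (11.6 and 9.59 in the replicates), lay at the promoter of another gene, Tomm40l. Of the 10 regions, 6 were in both replicates' lists, 1 in that of replicate 1 alone and 3 in neither.

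The inhibitory receptor gene Fcgr2b had a weak promoter and strong regions inside and behind the gene. The region at its main start (170975558 to 170976225) had a fold of 5.83, 6.43 in replicate 1 and 4.82 in replicate 2. A further one, 801 bp upstream of the gene's most upstream annotated start (170976547), had 4.76, 5.04 and 3.85 in the same lists. In contrast, a region 5.22 kb past the 3′ end of the gene (170953019 to 170953658), had a fold of 18.0, which is the 99.0 percentile of the list. It had 19.1 in replicate 1 (percentile 99.3) and 13.8 in replicate 2 (percentile 96.2) and was the highest of all 69 regions in each of the 3 lists. In the gene's introns, a region 8.80 kb from the 5′ end (170967414 to 170968100) had a fold of 13.9, with 13.4 and 11.9 in the replicates, and one 3.33 kb from it (170972987 to 170973494) had 9.90, with 9.63 and 9.14. A region of fold 10.7 over an exon with UTR (170959805 to 170960191) passed in replicate 2 alone, with a fold of 9.53. Summit windows follow for the region 3′ of Fcgr2b, the far and near intronic regions of Fcgr2b and the region upstream of Fcgr1. They are examples and not the highest folds in order. Regions of fold 12.1 and 11.9 in the Fcgr2b window and 11.7 in the Fcgr1 window, all above the near intronic one (9.90), are not printed. Capitals mark C/EBP, STAT6-type and E-box (CAGCTG) matches in the far intronic window, a PU.1 match in the near one and an ETS-IRF composite match upstream of Fcgr1; the strongest region, 3′ of Fcgr2b, holds no match to any of these 14 motifs.
Fcgr2b, 3′ of the gene (chr1:170953352-170953452, minus strand): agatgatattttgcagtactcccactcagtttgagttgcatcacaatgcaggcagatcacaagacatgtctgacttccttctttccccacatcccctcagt
Fcgr2b, intron, far (chr1:170967693-170967793, minus strand): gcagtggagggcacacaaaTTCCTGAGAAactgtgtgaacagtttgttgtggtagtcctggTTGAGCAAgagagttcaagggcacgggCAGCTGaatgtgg
Fcgr2b, intron, near (chr1:170973171-170973271, minus strand): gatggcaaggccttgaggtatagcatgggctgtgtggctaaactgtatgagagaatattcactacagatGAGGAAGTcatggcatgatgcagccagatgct
Fcgr1, upstream (chr3:96300830-96300930, minus strand): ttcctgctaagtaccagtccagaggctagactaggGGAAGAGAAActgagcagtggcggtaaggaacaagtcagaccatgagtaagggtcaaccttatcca

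**Figure D2:**
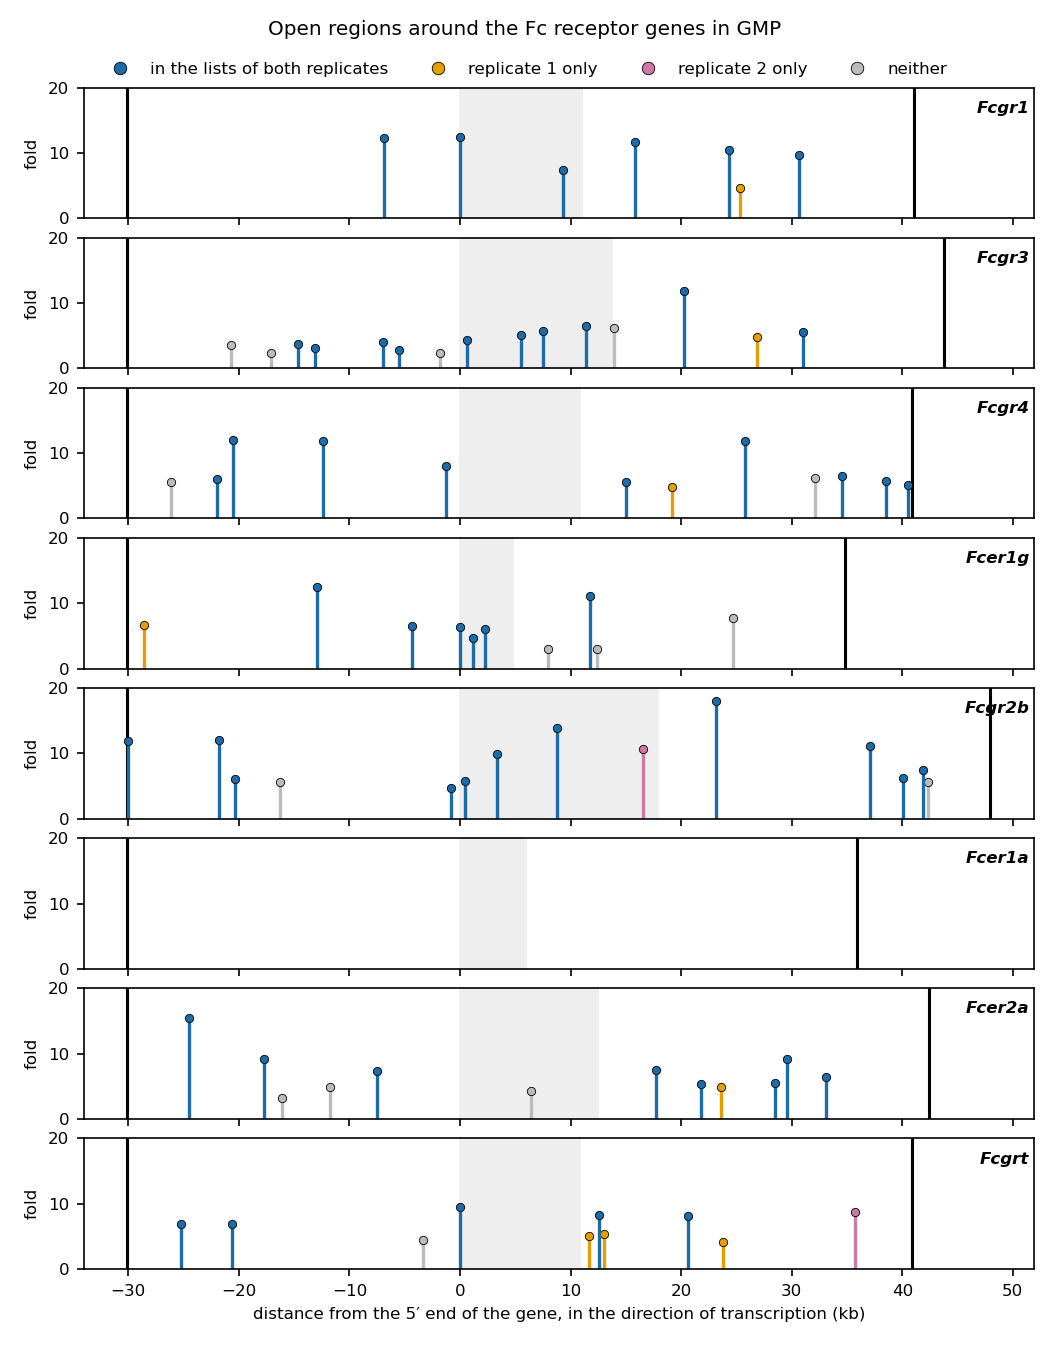
Fold enrichment of each region in the series-level list (y axis) by the distance of its summit from the 5′ end of the gene along the direction of transcription (x axis, kb); grey shading is the gene body, black lines are the window edges, and colours give the replicate lists that hold the region. Fcgr1 peaks at its start with a fold of 12.4, Fcgr2b past its 3′ end with 18.0, and the Fcer1a panel is empty.

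Fcer1a and Fcer2a, the genes of the IgE-binding chains, had no promoter region. Around Fcer1a, expressed on mast cells and basophils, no region lay within 30 kb in the series-level list, in either replicate's list or in the looser series-level list; the looser list of replicate 1 had one 9.97 kb upstream, with a fold of 4.82. The nearest in the series-level list lay 105.3 kb upstream (fold 5.40) and, on the other side, 555.6 kb past the gene. Of all protein-coding genes, 15.7% had no region in such a window and 10.2% none within 100 kb. Within 100 kb of Fcer1a lie 6 other protein-coding genes, 5 of them olfactory receptor genes by symbol, and no promoter of the 6 was open. The Fcer1a promoter printed above holds C/EBP and RUNX matches and one to the GATA-factor letters AGATAA. Fcer2a had 12 regions in its window and none at any of its 7 annotated starts. The nearest was an intronic region of fold 4.27 that passed in neither replicate (2.68 kb from a start), and the nearest in both replicates lay 7.49 kb upstream, with a fold of 7.36, 7.79 in replicate 1 and 5.92 in replicate 2. The looser list of replicate 1 had a region 242 bp upstream of a start, with a fold of 4.17. The highest fold of the window, 15.4 (16.3 and 12.0 in the replicates), was at the promoter of Clec4g, a C-type lectin gene, and 3 more regions lay at the promoters of Mcemp1, Fcor and Trappc5.

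Fcgrt was open at its start with a fold of 9.46 (chromosome 7, 45103544 to 45104228), 10.6 in replicate 1 and 7.33 in replicate 2, the second highest promoter fold of the members. No other region lay in the gene body. Of the other 9 regions in the window, 6 were at promoters of other genes, among them 4 at Rcn3 and 1 at the ribosomal protein gene Rpl13a. A region 3.38 kb upstream of Fcgrt (fold 4.43) passed in neither replicate.

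Summed over the members, 5 of 8 promoters were open in the series-level list, against 62.7% of all protein-coding genes. The count was 5 of 8 in replicate 1 (61.4% of all genes) and 6 of 8 in replicate 2 (58.1%), the difference being Fcgr4. At least 1 region lay in the window of 7 of 8 members in the series-level list (84.3% of all genes), in that of replicate 1 (83.6%) and in that of replicate 2 (81.2%). These shares are near the background. Regions per window ran from 0 at Fcer1a through 7 at Fcgr1, 10 at Fcer1g and Fcgrt, 12 at Fcgr4 and Fcer2a and 14 at Fcgr2b to 15 at Fcgr3, around a median of 5 over all genes and an upper decile starting at 12. The replicates' own lists gave 8 and 7 regions for Fcgr1, 12 and 13 for Fcgr2b, 11 and 10 for Fcgr3, 11 and 11 for Fcgr4, 7 and 6 for Fcer1g, 9 and 9 for Fcer2a and 8 and 6 for Fcgrt. Over the 3 lists, the ranges of Fcgr1, Fcer1g and Fcgrt overlapped each other, as did those of Fcgr4, Fcer2a, Fcgr2b and Fcgr3, while Fcgr1 had fewer regions than Fcgr2b, Fcgr3 and Fcgr4 in all 3 lists. For Fcgr3 this rests on the regions in copies: without them its window held 7 in the series-level list, as many as that of Fcgr1. The windows of Fcgr2b, Fcgr3 and Fcgr4 share 11 regions and are not independent. Per length, the windows held 13.5 regions per 100 kb over 511.4 kb, where the median gene had 5.40 and the upper 10% began at 12.9. Without the 8 regions in copies at Fcgr3, but over the same 511.4 kb, the density was 11.9 per 100 kb, below that limit. The limit was taken without any such removal. It also comes from single genes, while the members' windows were pooled. Singly, the members ran from 0 (Fcer1a) and 9.85 (Fcgr1) to 20.3 per 100 kb (Fcgr3, copies included). At the window edge, the Fcgr2b region of fold 11.9 lay 29.99 kb from the gene and was counted, while a region of fold 13.2 lay 30.60 kb from Fcgrt and was not.

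**Figure D3:**
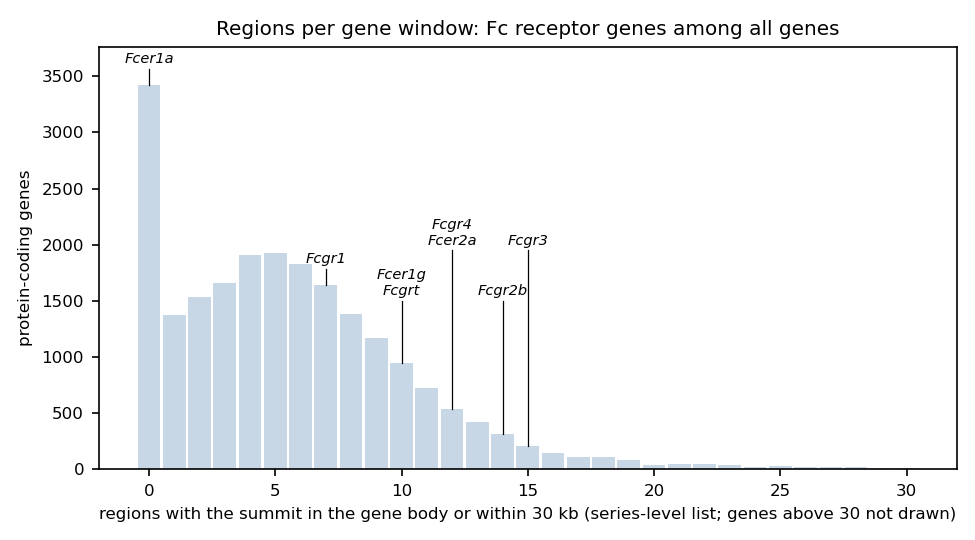
Number of protein-coding genes (y axis) by the number of regions in the gene body with 30 kb on each side (x axis, series-level list), with the Fc receptor genes marked. Fcer1a stands in the bar at 0, and the other members stand between 7 and 15.

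By place, 24 of the 69 regions (34.8%) were at promoters, 8 of them at members' own promoters and 16 at those of other genes, beside 23.2% of all regions. Intergenic regions made up 46.4% (32.4% of all regions), introns 15.9% (39.2%) and exons 2.90% (5.25%). The members' gene bodies span 4794 to 17931 bp, so most of each window is flank, and its part in these shares was not tested. The 7 regions upstream of Fcgr3 that lie in copies are among the intergenic ones. For 36 of the 69 regions the nearest protein-coding TSS was that of a member. The median fold was 6.40, against 8.09 over the list, and 22 of 69 regions were at or above the list's median, so most regions in the windows were below the typical fold of the list. A further 31 regions lay in the windows in the looser list alone, with folds of 1.90 to 5.99.

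The replicates' own lists both held 47 of the 69 regions, 68.1% (95% exact binomial interval 55.8 to 78.8, counting error only), against 66.1% of all regions. Replicate 1 alone held 7, replicate 2 alone 2, and 13 passed in neither. Regions in both lists had a median fold of 7.45, those in 1 list 5.11 and those in neither 4.27; over all regions the medians were 9.61, 6.76 and 5.41. Fcgr1 had 6 of 7 regions in both lists, Fcgr2b 11 of 14, Fcgr3 10 of 15, Fcgr4 9 of 12, Fcer1g 6 of 10, Fcer2a 8 of 12 and Fcgrt 5 of 10. All 8 regions at members' own promoters were in both lists.

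**Figure D4:**
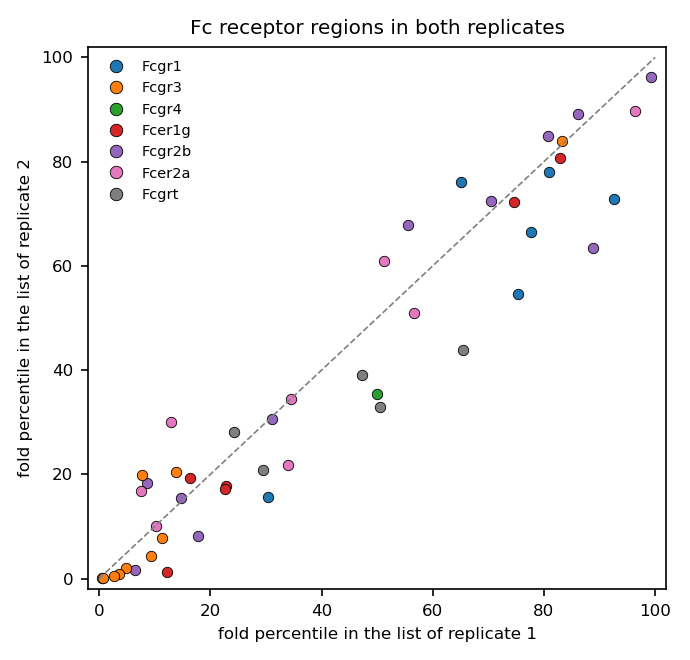
Percentile of fold in the list of replicate 1 (x axis) and of replicate 2 (y axis) for the 47 regions found in both; colours give the gene, a region in a pair of windows has the colour of the gene it was listed under first, and the dashed line marks equal percentiles. The point at 99.3 and 96.2 is the region 3′ of Fcgr2b, and the lowest points are those upstream of Fcgr3.

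Members' promoters were poor in CpG at the RefSeq starts measured, and 5 of the 8 genes had an open promoter, counted over all annotated starts of a gene. The most upstream annotated starts of Fcgr3 (171064935) and Fcgr2b (170976547) were not among the RefSeq starts measured. Over the 300 bases around a RefSeq TSS, the observed to expected CpG ratio was 0.0631 at Fcgr1, 0.0700 at Fcer1a, 0.103 at Fcgr4, 0.201 and 0.263 at Fcgr3, 0.235 at Fcgrt, 0.317 at Fcer1g and 0.353 at Fcgr2b, and 0.150 to 0.241 at 3 starts of Fcer2a, all under the median of 0.386 over 32585 promoters. Of all promoters with a ratio under 0.25, 13.7% had a summit within 1000 bp, and of those from 0.25 to 0.5, 31.4%, counted by single RefSeq start. Among members' RefSeq starts under 0.25, those of Fcgr1, Fcgrt and Fcgr3 (0.201) had a summit, and those of Fcer1a, Fcgr4 and Fcer2a had none. From 0.25 to 0.5, the starts of Fcgr3 (0.263), Fcer1g and Fcgr2b had one. Both Fcgr3 starts (171059394 and 171059403) share the same region, of fold 5.18, so a single open site stands in both ranges. The ratio of the open Fcgr1 promoter was in the lowest 7.94% of all promoters.

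**Figure D5:**
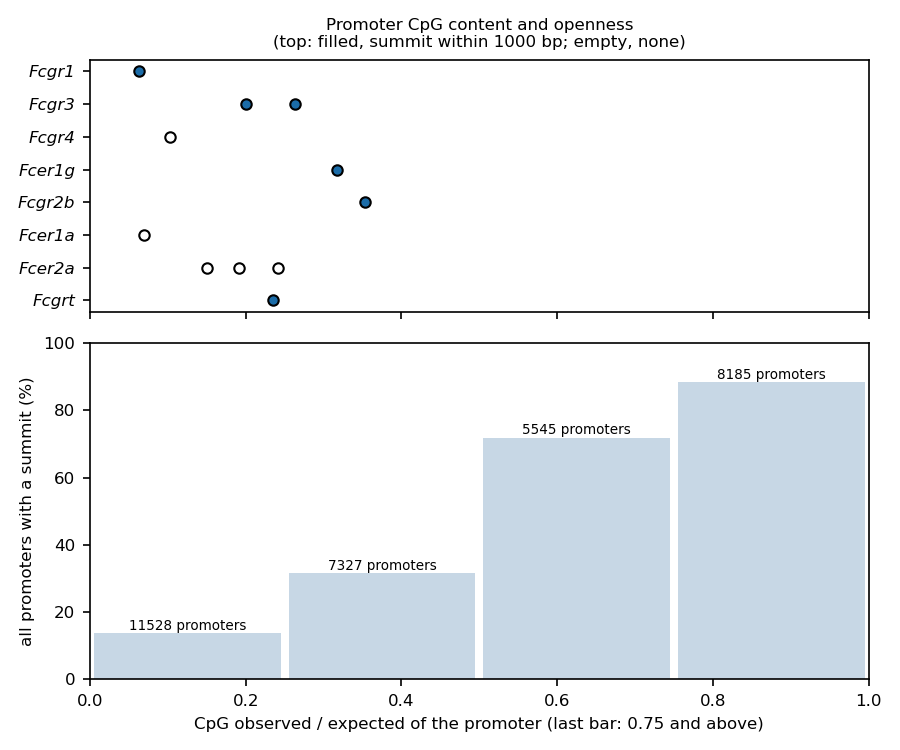
CpG observed to expected ratio (x axis) of each RefSeq promoter of the Fc receptor genes (top; filled where a summit lay within 1000 bp, empty where none did) and the percentage of all promoters with such a summit in 4 ranges of the ratio (bottom). All members lie at or below 0.353, in the ranges where 13.7% and 31.4% of promoters were open.

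Motif matches within 50 bp of the summits were near their share over all 75129 regions on the scanned chromosomes for most motifs. C/EBP letters were in 7 of 69 regions (10.1%, against 9.27%), RUNX letters (TGTGGTT) in 6 (8.70%, against 6.21%) and the E-box in 5 (7.25%, against 7.50%). The ETS-IRF composite was in 4 (5.80%, against 3.14%) and the STAT6-type palindrome in 3 (4.35%, against 2.01%). PU.1 letters were in 2 (2.90%, against 7.54%), CTCF in 1 (1.45%, against 5.01%) and AP-1 (TGANTCA) in 0 (against 5.65%). The ETS-IRF matches lay at the Fcgr2b start, upstream of Fcgr1 and in a pair of Fcer2a-window regions. The others were ETS (CCGGAAGT) in 0 (against 1.15%), KLF/SP (GGGGCGGG) in 2 (2.90%, against 4.17%) and MITF (TCANGTGA) in 1 (1.45%, against 1.14%). GATA letters were in 2 (2.90%, against 3.11%), the IRF repeat in 1 (1.45%, against 1.61%) and EBF in 0 (against 0.198%). Letters of ETS-type motifs and of the ETS-IRF and IRF motifs can overlap. No match to any of the 14 motifs reported here was found in 39 of the 69 windows. The matching share over all regions was not computed, so this count has no background. Among the 39 are the 8 windows in copies at Fcgr3, which also stay in the 69 behind each share above.

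Promoters of genes that work with the receptors were mostly open, where 62.7% of all genes were. Of 20 partner and signalling genes, 19 had an open promoter in the series-level list and 18 in each replicate's list. The exception was Ms4a2, the β chain of the IgE receptor, which like Fcer1a had none in any of these lists, and Btk (fold 3.52) passed in the series-level list alone. The highest promoter folds were 16.4 at Pik3cd (a PI3-kinase catalytic subunit), 13.5 at Fyn (a Src-family kinase), 12.1 at Lat2, 11.2 at Lat (adaptors) and 10.4 at Syk. The median window held 14 regions, against 11 for the members. These counts were not adjusted for gene length, and the members' counts include shared regions and the copies at Fcgr3. Inpp5d had a promoter fold of 8.83, 8.52 in replicate 1 and 8.26 in replicate 2, and B2m, the partner of Fcgrt, had 9.51, 9.82 and 8.57. Of 10 other Fc receptor genes, 5 were open: Trim21 (fold 15.5), a cytosolic Fc receptor, Fcrl1 (12.2), Fcrls (9.97), Fcrlb (7.83) and Fcmr (4.75, in neither replicate's list). Fcrla, Fcrl5, Fcrl6, Fcamr and Pigr had no promoter region.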

How the data were processed

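Per the labels, ATAC-seq was run on 2 GMP replicates. The deposited files are lists of regions in mm10 with, for each row, a fold enrichment (a ratio to an unstated background) and a −log10 q by the authors; aligner, peak caller, handling of repeated sequence and Tn5 shift have no statement in the sources used here. Rows overlapping by 1 bp or more were merged, keeping the summit and fold of the row with the highest fold. Genes and starts come from GENCODE vM21 (21755 protein-coding genes on 19 autosomes and X), promoter composition from RefSeq (GRCm38.p6). Likeness of summit windows was computed with edlib 1.3.9.post1, intervals with scipy 1.17.1; counting, merging and the motif search were tested on simulated data. Depth is unknown, so no interval rests on it. No test between groups was possible. The genes named are all 8 members, and of 20 partner and 10 other Fc receptor genes those without a promoter region and the 5 with the highest fold; Inpp5d, B2m, Btk and the miRNA genes were added after their values were seen. A motif and a few neighbouring genes are not reported here. Members, lists, markers and motifs were chosen with earlier results of these data known.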

Additional observations from a re-analysis of the deposited data

How the results depend on the processing

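Of 44 alternative values for the main counts and shares, 36 stayed within 1.5 times the count or, for the share in both replicates' lists, within its interval. Counting only regions at or above the list's median fold gave 22 regions in place of 69, 2 members with an open promoter (Fcgr1 and Fcgrt) in place of 5, 11 of 20 partner genes in place of 19, and a share in both lists of 90.9%. The looser list of each replicate raised that share to 97.1%. Unmerged rows numbered 116, and windows of 10 and 100 kb held 39 and 139 regions. With the list of 1 replicate in place of the series-level list, the 8 genes had 53 to 57 regions, 7 with a region in the window in both cases, 5 to 6 with an open promoter, and 18 of 20 partner genes. Without the regions in copies at Fcgr3, 61 regions remained, with 68.9% in both lists. Without replicate 1, the counts at Fcer1g and Fcgrt fell from 10 to 6. Fcer1a had 0 regions under each of the 9 alternatives run for it. No paired analysis was possible because the series has 1 group. Depth is unknown, so a region missing from a list is one that did not pass its threshold.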
